A study of Mus musculus with 24 samples.

Results

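The genes described here are 10 genes of blood vessel endothelium, measured in the urogenital sinus (UGS) of mouse embryos. They are Rhoj, Cavin2, the 3 SoxF transcription factor genes Sox7, Sox17 and Sox18, and the 5 general endothelial genes Pecam1, Kdr, Tek, Tie1 and Vwf. They were chosen by name, and every array probe that carries one of these names was taken, with Cavin2 under its older name Sdpr. That gave 16 probes, of which 15 were bright enough for the fit, and all 10 of the 24717 genes tested were represented by at least 1 probe. Rhoj and Cavin2 entered the set because of their change at 6 h, so their 6 h values are given as a description without a test. Which comparison brought in the SoxF genes is not recorded, and their male-female values are treated the same way. The brightest probe of each gene was used for all statistics.

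The UGS is an endodermal tube in a sleeve of mesenchyme, and in males it gives rise to the prostate. Pregnant C57BL/6J mice received 50 mg/kg dihydrotestosterone (DHT), a potent androgen, or vehicle at 16 days post conception (dpc), and the UGS of female embryos was collected 6 or 12 h later. A further comparison set untreated male embryos against their female littermates at 17.5 dpc, a point that the labels also call 48 h. RNA pooled from several embryos was amplified from 250 ng, and each pool was hybridised directly against its partner on 2 Agilent 2-colour arrays with exchanged dyes. The 24 arrays cover 4 pairs of pools at 6 h, 3 at 12 h and 5 at 17.5 dpc. Log2 ratios are positive where the DHT pool, or the male pool, had the higher signal. The embryos were sexed by their gonads and the accessory ducts were dissected away. Each pool is a tissue mixture, so fewer endothelial cells and less RNA per endothelial cell cannot be told apart. Each comparison was hybridised on a day of its own, so differences between comparisons and between hybridisation days cannot be told apart.

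Some pools went against their labels or differed in makeup. The mean log2 level of 4 Y-linked genes was 6.11, 7.35, 6.75 and 6.85 in the 6 h vehicle pools of replicates 1 to 4, against 5.97 to 6.11 in the 6 h DHT pools. It was 6.05 to 6.22 in the female and 7.47 to 7.83 in the male pools at 17.5 dpc. The 6 h vehicle pools of replicates 2, 3 and 4, all labelled female, thus lay above the female range, and replicate 1 lay within it. A list of 21 epithelial markers had mean log2 ratios of −0.53, −0.44, −0.10 and 0.00 in the 6 h pairs, −0.03, 0.35 and 0.55 in the 12 h pairs, and 0.07 to 0.53 at 17.5 dpc. Median uncorrected spot signals of the arrays were 102.3 to 151.1 in Cy3 and 98.14 to 146.2 in Cy5. All 10 members, and the 5 further defining endothelial markers Cdh5, Flt1, Eng, Erg and Fli1, had a channel well above background on 24 of 24 arrays.

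Endothelial cells line blood vessels and supply growing organs, the budding prostate among them. Their receptors Kdr (VEGF receptor 2), Tek (the angiopoietin receptor) and Tie1 carry the signals for sprouting and vessel stability. ETS family factors maintain endothelial identity, and the SoxF factors act beside them in arterial specification, vessel maturation and, for Sox18, lymphatic development. Rhoj is a small GTPase of the Cdc42 branch that is abundant in endothelium and acts in cell motility and vessel growth. Cavin2 coats caveolae, the membrane pits that are plentiful in endothelium. Sox17 and Sox7 are not restricted to endothelium: both also act in endoderm.

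Promoter sequence was given for 5 of the 10 members: Rhoj, Cavin2, Kdr, Tek and Tie1. The 250 bases before the transcription start are shown for Rhoj and Cavin2, the members with the largest 6 h ratios, and for Tek, an endothelial receptor gene whose ratios lay near 0. The sequences are RefSeq's, build GRCm38.p6, written 5′ to 3′ on the gene's strand. Capitals mark GGAA (the core of ETS sites), ACAAT (the core of SOX sites) and AGAACA (an androgen receptor core), each on either strand.
Rhoj, chr12:75308063-75308312, plus strand: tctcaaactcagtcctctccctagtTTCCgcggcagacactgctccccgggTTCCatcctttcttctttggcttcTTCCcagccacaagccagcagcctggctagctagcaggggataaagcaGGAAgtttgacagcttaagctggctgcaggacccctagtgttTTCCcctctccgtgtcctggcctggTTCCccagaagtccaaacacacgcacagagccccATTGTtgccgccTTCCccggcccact
Cavin2, chr1:51288876-51289125, plus strand: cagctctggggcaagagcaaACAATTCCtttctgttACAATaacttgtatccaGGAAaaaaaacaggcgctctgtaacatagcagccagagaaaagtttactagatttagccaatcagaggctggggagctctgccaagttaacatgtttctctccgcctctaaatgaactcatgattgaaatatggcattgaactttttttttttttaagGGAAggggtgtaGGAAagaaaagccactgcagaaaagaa
Tek, chr4:94739039-94739288, plus strand: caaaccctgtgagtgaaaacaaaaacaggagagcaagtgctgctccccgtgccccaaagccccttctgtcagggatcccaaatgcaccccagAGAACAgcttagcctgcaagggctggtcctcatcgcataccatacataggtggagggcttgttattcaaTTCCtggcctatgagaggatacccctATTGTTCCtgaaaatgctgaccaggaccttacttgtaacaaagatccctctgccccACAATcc
The Rhoj window held 7 matches to GGAA and 1 to ACAAT, the latter 26 bases before the start. The Cavin2 window held 4 and 2, and the Tek window 2 and 2. In Cavin2 and in Tek 1 ACAAT match shares a base with a GGAA match. Kdr had 4 and 0 matches and Tie1 7 and 0. AGAACA occurred in 1 of the 5 windows, 158 bases before the Tek start. Among 32851 mouse promoter windows of the same length, 93.4% held GGAA, 27.7% ACAAT and 16.1% AGAACA. A match is a run of letters and not a measured binding site.

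The Rhoj ratio was above 0 in every pair at 6 h and below 0 in every pair at 12 h and 17.5 dpc, as was that of Sox18 at smaller sizes. At 6 h its log2 levels in replicates 1 to 4 were 10.56, 10.36, 10.49 and 10.64 in the DHT pools and 9.92, 9.90, 9.70 and 10.22 in the vehicle pools. Every DHT pool lay above every vehicle pool. The log2 ratios were 0.64, 0.47, 0.79 and 0.42, with a mean of 0.58 (SD 0.17, n = 4), or 1.49-fold. In replicate 1, the pair whose vehicle pool had Y-linked levels in the female range, the ratio of 0.64 was the second highest of the 4. The part of the Y-linked RNA of the other vehicle pools in the 6 h ratios was not tested. Rhoj and Cavin2 were the 2 of 10 members past the threshold of an adjusted p under 0.05 at 6 h, both higher, where 0.494% of all genes were called higher. Both were chosen for this change, so nothing is read from that count. It fell to 0 without any single 6 h pair and with replicate 1 as the only 6 h pair, and it was 0 with median centring, the scanner's ratios, scaled ratios, the comparison fitted alone or a replicate block.

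At 12 h the Rhoj ratio had the opposite sign. The DHT pools of replicates 1 to 3 had log2 levels of 10.00, 9.20 and 9.86, and the vehicle pools 10.39, 10.30 and 10.17. Every DHT pool lay below every vehicle pool, and replicate 2 stood apart as the lowest. Rhoj was 1 of 5 members below 0 in all 3 pairs, with Sox18, Pecam1, Tie1 and Vwf, as were 18.7% of all genes. The ratios were −0.39, −1.10 and −0.31, with a mean of −0.60 (SD 0.43, n = 3). The spread was wide, and in limma the difference did not pass over all genes (adjusted p = 0.0837, 95% interval −0.90 to −0.30), where 0.287% of genes were called. Without replicate 2 the value was −0.35 (limma, adjusted p = 0.28). The adjusted p was 0.0227 to 0.398 over the alternatives, and it passed only when the arrays of either dye orientation were used alone. Over all genes, 3186 were called on arrays without the dye swap and 1345 on dye-swapped arrays. The epithelial marker mean was −0.03, 0.35 and 0.55 in the same 3 pairs, and its part in the Rhoj ratio was not tested.

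Between males and females at 17.5 dpc Rhoj was lower in males. The male pools of replicates 1 to 5 had log2 levels of 10.42, 10.43, 10.00, 9.73 and 9.93, and the female pools 10.80, 10.59, 10.46, 10.56 and 10.48. The ranges did not overlap, though the male pools of replicates 1 and 2 lay just under the lowest female pool. The ratio was −0.37, −0.16, −0.46, −0.83 and −0.55 in turn, negative in each of 5 pairs, as for 7.97% of all genes. The mean was −0.48 (SD 0.25, n = 5), a 1.39-fold lower level in males, and it passed in limma (SE 0.11, adjusted p = 0.0145, 95% interval −0.71 to −0.24). The call was lost without replicate 4, at −0.39 (limma, adjusted p = 0.0776). Over all 18 alternatives the ratio was −0.56 to −0.37 and the adjusted p 0.00687 to 0.0776.

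The second Rhoj probe, about 2 log2 units dimmer, followed at 6 h and 12 h. Its mean ratio was 0.51 (SD 0.12, above 0 in 4 of 4 pairs) at 6 h and −0.50 (SD 0.36, below 0 in 3 of 3) at 12 h, with no overlap of levels in either. At 17.5 dpc it was −0.27 (SD 0.29), below 0 in 4 of 5 pairs, with replicate 2 at 0.13 and overlapping levels. The 2 dye orientations gave the same sign in each of the 12 pairs on both probes. The male-female difference of Rhoj was thus smaller and less regular on the second probe.

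**Figure D1:**
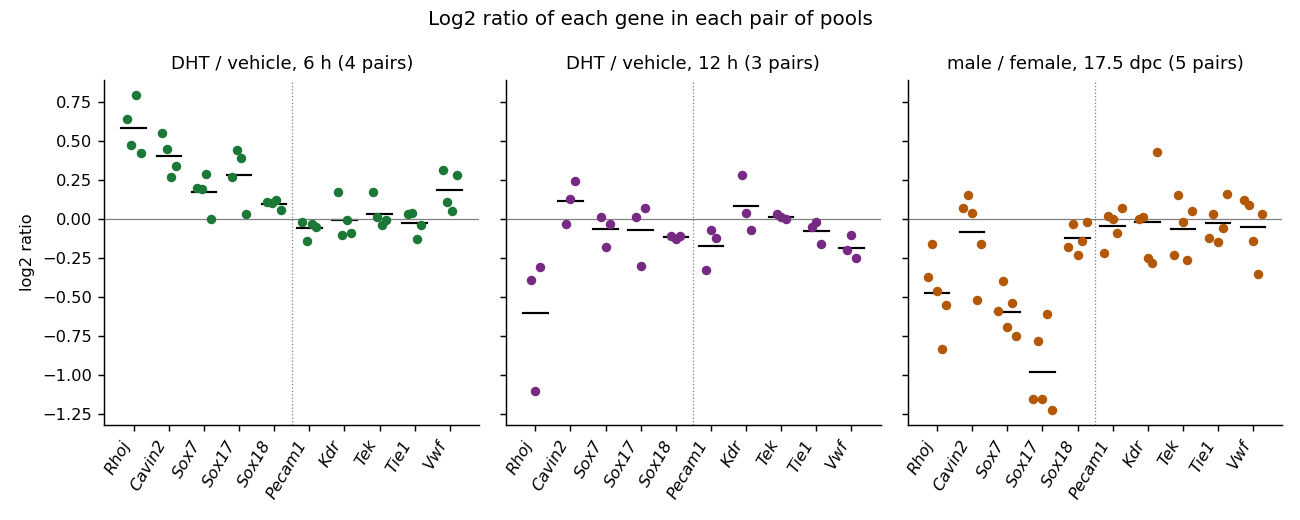
Log2 ratio (vertical axis) of the 10 genes in every pair of pools, with 1 panel for each comparison; each point is a pair in replicate order from left to right, the mean of its 2 dye-swapped arrays, bars are means over pairs, and the dotted line separates the 5 general endothelial genes. Rhoj lies between 0.42 and 0.79 at 6 h and below 0 in each later pair, and Sox17 between −1.22 and −0.61 at 17.5 dpc. The general genes scatter about 0, with all 5 means below 0 at 17.5 dpc.

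Cavin2, the caveolar coat gene, shared the 6 h direction of Rhoj but not the later one. At 6 h its log2 levels were 10.81, 10.86, 10.92 and 10.91 in the DHT pools and 10.26, 10.41, 10.65 and 10.57 in the vehicle pools, without overlap. The ratios were 0.55, 0.45, 0.27 and 0.34, with a mean of 0.40 (SD 0.12, n = 4), or 1.32-fold. With DHT in Cy5 they were 0.76, 0.63, 0.43 and 0.49, and with DHT in Cy3 0.33, 0.28, 0.12 and 0.19. The ratio was highest in replicate 1, the pair with Y-linked levels in the female range, and a link between the 2 was not tested. At 12 h the ratios were −0.03, 0.13 and 0.24 (mean 0.11, limma adjusted p = 0.694), and the levels overlapped. At 17.5 dpc they ranged from −0.52 in replicate 4 to 0.15 in replicate 2 (mean −0.09, SD 0.27, n = 5, limma adjusted p = 0.687). Replicate 1 rests on 1 array there, since an outlier spot was left out of the other. The 2 dye orientations had the same sign in 4 of 4 pairs at 6 h, 1 of 3 at 12 h and 2 of 4 at 17.5 dpc. The other genes of caveolae showed no call: of 10 measured, 0 passed in limma in any of the 3 comparisons, with 1, 0 and 2 at an unadjusted p under 0.05 at 6 h, 12 h and 17.5 dpc (14.3%, 14.1% and 18.5% of all genes) and medians of −0.02, 0.08 and 0.06.

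Sox17 showed the widest male-female gap among the 10 genes. At 17.5 dpc the log2 levels of replicates 1 to 5 were 8.56, 8.28, 8.21, 8.62 and 8.50 in male pools and 9.70, 9.06, 9.36, 9.23 and 9.72 in female pools. Every male pool lay below every female pool. The ratios were −1.15, −0.78, −1.15, −0.61 and −1.22, with a mean of −0.98 (SD 0.27, n = 5), a 1.97-fold lower level in males. Both dye orientations had the same sign in each of 5 pairs. Over the 18 alternatives the mean ranged from −1.15 to −0.54.

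The probes of Sox17 differed in how much they showed. The second brightest had a male-female mean of −0.64 (SD 0.18), below 0 in each of 5 pairs, with male levels of 7.28 to 7.73 under female levels of 8.01 to 8.41. The next probe was well above background on 5 of 10 male and 5 of 10 female channels and had a mean of 0.02 (SD 0.05). The dimmest, not well above background in any of the 10 male or the 10 female channels, had 0.02 (SD 0.04). The 2 dim probes therefore bear little on the gene. With all 3 kept probes averaged, the male-female difference from the general genes (below) shrank from −0.94 to −0.50.

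Sox7 had the same male-female direction at a lower level. The male pools had log2 levels of 7.16, 7.39, 7.13, 7.34 and 7.37 and the female pools 7.75, 7.79, 7.82, 7.87 and 8.11, again without overlap. The ratios were −0.59, −0.40, −0.69, −0.54 and −0.75 (mean −0.59, SD 0.13, n = 5), or 1.51-fold lower in males; replicate 1 rests on 1 array. Sox18 was nearer to 0, with ratios of −0.18, −0.03, −0.23, −0.14 and −0.02 (mean −0.12, SD 0.09, n = 5) and overlapping levels of 7.88 to 8.17 in males and 8.10 to 8.34 in females. With Rhoj, the 3 SoxF genes were the 4 of 10 members called lower in males, where 3.86% of all genes were called lower and 3.72% higher, and 0 members were higher. Since it is not known whether this comparison chose the SoxF genes, nothing is read from their part of the count. Without replicate 4 the count was 2, Sox7 and Sox17.

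In the DHT comparisons the SoxF genes did not pass. At 6 h Sox17 had log2 levels of 9.09, 9.18, 9.33 and 9.05 in DHT pools and 8.82, 8.74, 8.94 and 9.02 in vehicle pools. The groups did not overlap, but replicate 4 gave a ratio of 0.03 and the mean of 0.28 (SD 0.18, n = 4) missed the threshold in limma (adjusted p = 0.186). The highest Sox17 ratio, 0.44, was in replicate 2, whose vehicle pool had the highest Y-linked level, 7.35. In replicate 1, with Y-linked levels in the female range, it was 0.27. A link to the Y-linked levels was not tested. Sox7 was at 0.17 (SD 0.12, adjusted p = 0.17) and Sox18 at 0.10 (SD 0.02, above 0 in 4 of 4 pairs, as were 12.8% of all genes, adjusted p = 0.239). At 12 h the ratios were 0.01, −0.30 and 0.07 for Sox17, 0.01, −0.18 and −0.03 for Sox7, and −0.11, −0.13 and −0.11 for Sox18. Their means of −0.07, −0.07 and −0.12 had adjusted p of 0.859, 0.731 and 0.221 in limma. At 12 h limma called 0 of the 10 members. The unadjusted p was below 0.05 for 4 of them, and for 14.1% of all genes.

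**Figure D2:**
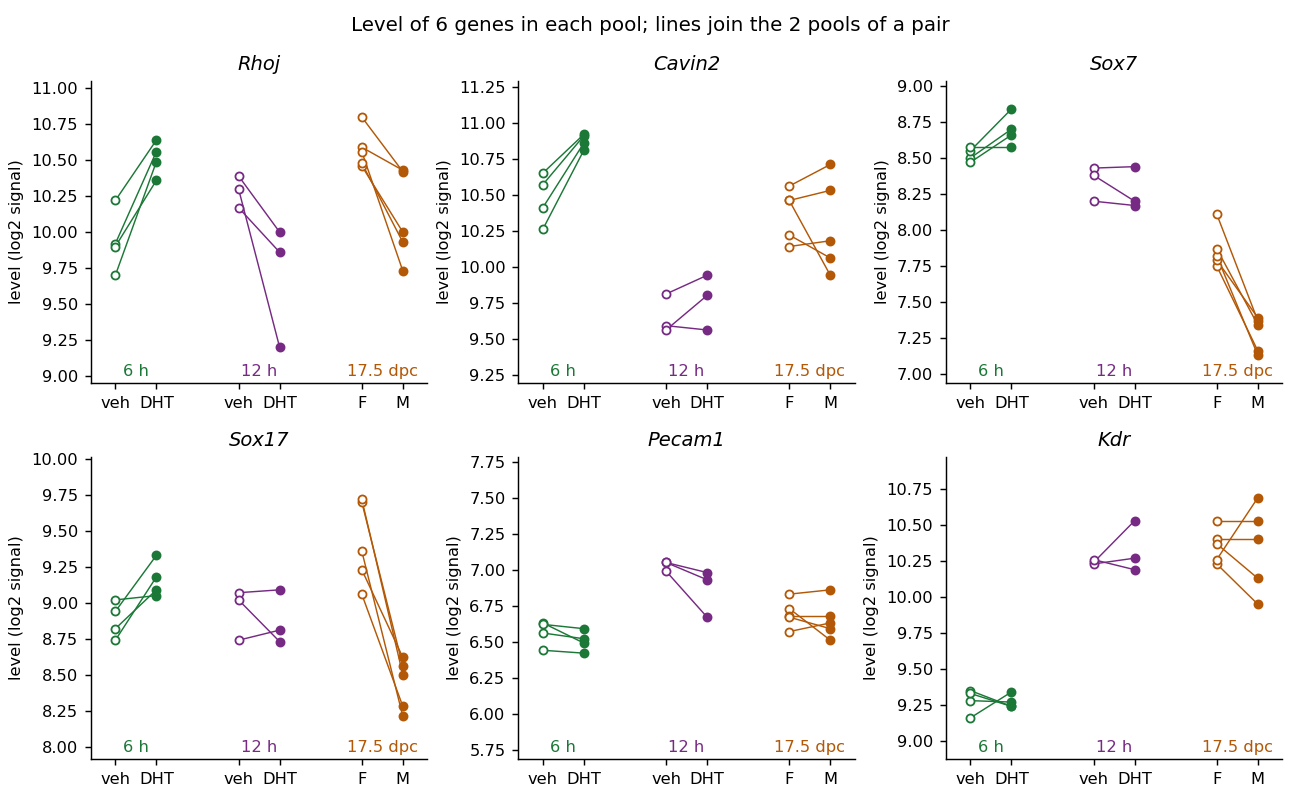
Log2 signal (vertical axis, each panel spanning the same range) of 6 genes in each of 24 pools, with vehicle or female pools as open and DHT or male pools as filled points, and lines joining the pools of a pair. Rhoj lines rise at 6 h and fall at 12 h and 17.5 dpc, Sox7 and Sox17 lines fall in each male-female pair, and Pecam1 and Kdr lines run in both directions at 17.5 dpc.

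The 5 general endothelial genes gave no call in the main fit of any comparison. With arrays of 1 dye orientation alone, Pecam1 at 12 h (−0.29) and Tek at 6 h (0.22) and 17.5 dpc (−0.24) passed in limma. Those settings called 3186, 3782 and 3432 of 24717 genes, against 71, 412 and 1873 in the main fit. Pecam1 is the junction protein CD31, and Vwf is the clotting factor that endothelium stores. Between males and females the mean log2 ratios were −0.04 for Pecam1 (95% interval −0.14 to 0.06), −0.02 for Kdr (−0.20 to 0.17), −0.06 for Tek (−0.18 to 0.06), −0.03 for Tie1 (−0.12 to 0.07) and −0.05 for Vwf (−0.18 to 0.09). All 5 means were below 0, as were those of the 5 defining markers (median −0.09). The lowest limit was the −0.20 of Kdr. For Rhoj the mean was −0.48 with an interval of −0.71 to −0.24, and its second probe had a mean of −0.27. The −0.98 of Sox17 may have chosen that gene and is set beside these values as a description. The levels of male and female pools overlapped for each of the 5. Single pairs went both ways: Kdr was at 0.43 in replicate 5 and −0.28 in replicate 4, and Vwf at 0.12 in replicate 1 and −0.35 in replicate 4.

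With DHT the general genes also stayed close to 0, with Vwf the farthest. At 6 h Vwf had a ratio of 0.31, 0.11, 0.05 and 0.28 (mean 0.19, SD 0.13, limma adjusted p = 0.214), and its levels of 7.91 to 8.15 lay just above the 7.64 to 7.88 of the vehicle pools. At 12 h its mean was −0.19 (SD 0.08, below 0 in 3 of 3 pairs, adjusted p = 0.312). Its second probe gave 0.08 and −0.12, and another was dim. The other 4 had means of −0.06 to 0.03 at 6 h. At 12 h Pecam1 was at −0.17 (SD 0.14, adjusted p = 0.199) with levels of 6.67 to 6.98 below 6.99 to 7.05, and Kdr, Tek and Tie1 had 0.08, 0.01 and −0.08. For Tek the 2 dye orientations had opposite signs in each of the 7 DHT pairs, so its ratio there is an average of opposed readings. The signs of Tek, Tie1 and Kdr turned in some alternatives.

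Subtracting the mean ratio of the 5 general genes in each pair set Rhoj and Sox17 against these 5 genes. Pecam1, Tie1 and Tek were the dimmest of the 5, with mean log2 signals of 6.703, 6.693 and 7.029. Kdr and Vwf had 9.945 and 8.009, Rhoj 10.21 and Sox17 8.955. The dimmest Sox17 probe, well above background on 1 of 24 arrays, had 5.896. How far low signal or opposed dye readings limit the ratios of Pecam1, Tie1 and Tek was not tested. The difference for Rhoj was 0.55 at 6 h (SD 0.18, positive in 4 of 4 pairs), −0.53 at 12 h (SD 0.47, negative in 3 of 3) and −0.44 at 17.5 dpc (SD 0.21, negative in 5 of 5). For Sox17 it was 0.25 (SD 0.22), 0.00 (SD 0.24) and −0.94 (SD 0.36, negative in 5 of 5). With Cdh5, Flt1, Eng, Erg and Fli1 in place of the 5 members the differences were 0.57, −0.60 and −0.35 for Rhoj and 0.28, −0.07 and −0.86 for Sox17. Before subtraction the mean ratios were 0.58, −0.60 and −0.48 for Rhoj and 0.28, −0.07 and −0.98 for Sox17. The part of the endothelial share of the tissue in these ratios was not tested. For Sox18 the male-female difference was −0.08 (SD 0.09), about the size of its spread.

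Rhoj and Sox17 correlated at r = 0.639 over the 12 pairs, and at r = 0.257 with the mean of each comparison removed. In the male-female pairs Rhoj was farthest from 0 in replicate 4, at −0.83, where Sox17 was nearest to 0, at −0.61. In the 12 h pairs Sox17 was at 0.01 and 0.07 in replicates 1 and 3, while Rhoj was at −0.39 and −0.31. As a description over the 12 pairs, which differ in comparison and hybridisation day, the correlations among the 5 general genes were −0.03 to 0.61 (median 0.38). Those of Rhoj with the 5 were 0.01 to 0.69 (median 0.11) and those of Sox17 −0.26 to 0.28 (median −0.03).

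**Figure D3:**
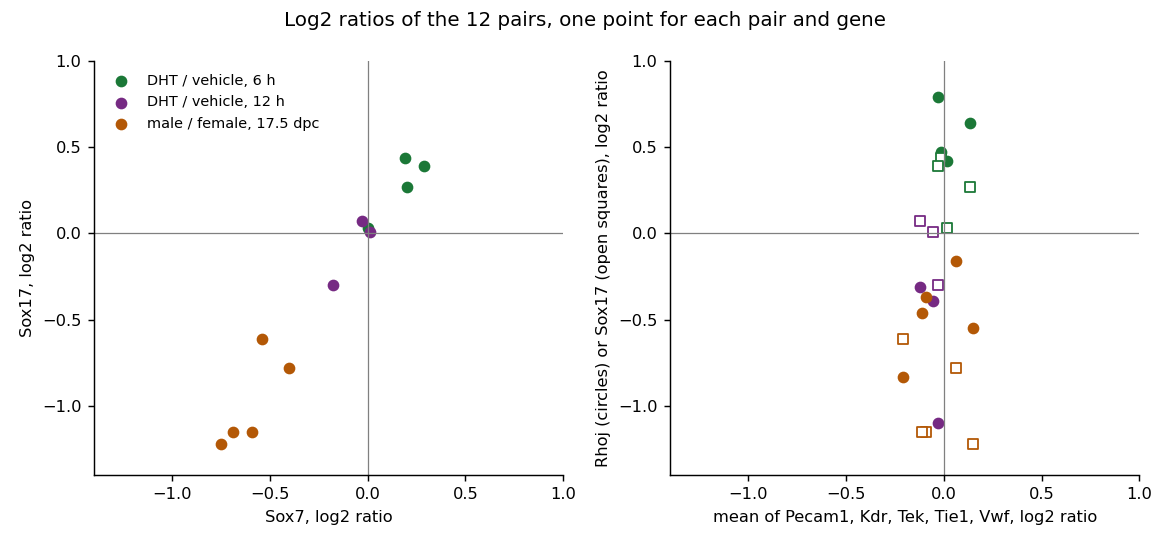
Left, log2 ratio of Sox17 against Sox7; right, log2 ratio of Rhoj (filled circles) and Sox17 (open squares) against the mean log2 ratio of Pecam1, Kdr, Tek, Tie1 and Vwf; each point is 1 of 12 pairs of pools, coloured by comparison, and all axes have the same scale. The general mean stays between −0.21 and 0.15 while Rhoj runs from −1.10 to 0.79 and Sox17 from −1.22 to 0.44.

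Wider endothelial lists showed few calls at any time. Of 25 further endothelial genes 0 passed at 6 h (median 0.08) and 0 at 12 h (median −0.03) in limma, with 6 and 5 at an unadjusted p under 0.05 (14.3% of all genes at 6 h). Between males and females 1 was higher and 2 were lower (median −0.07), where 3.72% and 3.86% of all genes were called higher and lower. The unadjusted p was under 0.05 for 8 of the 25, and for 18.5% of all genes. Of the 25 ratios 19 were below 0 and 5 above. Calcrl, the receptor subunit for adrenomedullin, rose to 0.70 in males (limma, adjusted p = 0.000201), and Tspan18, a tetraspanin, and S1pr1, the sphingosine-1-phosphate receptor of vessels, were lower at −0.38 and −0.12. Cdh5, the endothelial cadherin, was at −0.22 (adjusted p = 0.0622), Flt1 at −0.16 (adjusted p = 0.402) and Eng at −0.08 (adjusted p = 0.628), none of them past the threshold. The median over all genes is near 0 by the normalisation, so a list median of this size is a small shift.

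Among 20 transcription factors of endothelium, Ets1, an ETS family factor, was lower at 6 h (−0.34, limma adjusted p = 0.0122), where 1.17% of all genes were called lower, and the others did not pass. The ETS factors Erg and Fli1, both markers of endothelial identity, were at 0.21 (adjusted p = 0.066) and −0.18 (adjusted p = 0.241) at 6 h, and at −0.07 and −0.09 between the sexes. At 17.5 dpc 3 were higher in males, namely Nr2f2 (COUP-TFII, of veins but also of mesenchyme) at 0.24, Foxc2 at 0.24 and Ets2 at 0.23, and 1 was lower, Lyl1 at −0.22 (limma, adjusted p = 0.0197 to 0.0448). At 12 h 0 of 20 passed, with a median of −0.08. The unadjusted p was under 0.05 for 8 of 20 at 6 h, 7 at 12 h and 8 at 17.5 dpc. The shares of all genes were 14.3%, 14.1% and 18.5%. The largest absolute male-female ratio past the threshold in this list was 0.24, between the −0.12 of Sox18 and the −0.59 of Sox7 in size. The male-female values may have chosen the SoxF genes, so nothing is read from this order.

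Of 20 measured vascular growth factors and receptors, 3 were lower in males and 0 higher. Nrp2, a coreceptor for VEGF and semaphorins, was at −0.61 (limma, adjusted p = 0.00246), Angpt2, a ligand of Tek, at −0.38 (adjusted p = 0.0448), and the Notch ligand gene Dll1 at −0.33 (adjusted p = 0.0101). At 6 h and 12 h 0 of 20 passed, with 2 and 5 at an unadjusted p under 0.05 and medians of 0.00. Few markers of vessel subtypes passed. At 6 h 1 of 6 lymphatic genes was higher, Mmrn1 (0.33, limma, adjusted p = 0.042), with 4 ratios above 0 and 2 below (median 0.16). Of 10 arterial genes 1 was, Sema3g (0.30, limma, adjusted p = 0.0296), with 5 ratios above 0 and 5 below (median 0.02). Over all genes 0.494% were called higher there. The unadjusted p was under 0.05 for 3 of the 6 and 3 of the 10, and for 14.3% of all genes. Lyve1 had the largest lymphatic ratio, 0.61, and did not pass (limma, adjusted p = 0.097). Prox1, the lymphatic master regulator, was lower in males at −0.23 (limma, adjusted p = 0.00163). Of 6 lymphatic genes it alone was called, where 3.86% of all genes were called lower, and the list median was −0.02. Of 10 arterial genes 0 passed between the sexes, with 2 at an unadjusted p under 0.05.

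**Figure D4:**
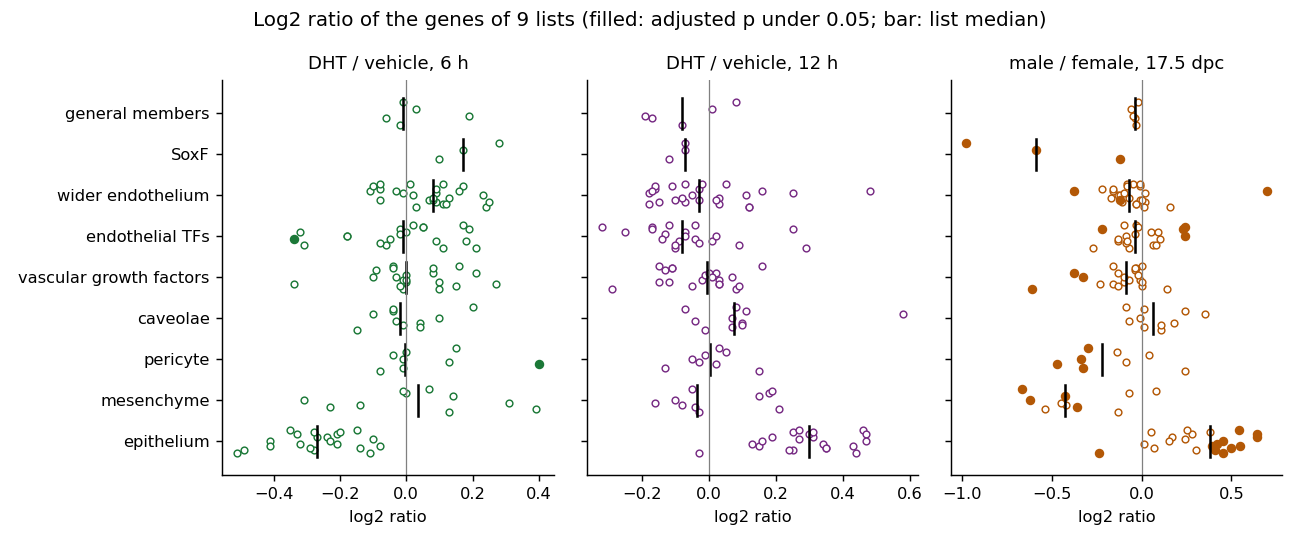
Log2 ratio (horizontal axis, scaled separately in each panel) of the genes of 9 lists (vertical axis) in the 3 comparisons; filled points passed an adjusted p of 0.05 in limma, open points did not, and black bars are list medians. At 17.5 dpc the SoxF median is −0.59 while the general and wider endothelial medians are −0.04 and −0.07, and epithelial genes lie mostly below 0 at 6 h and above 0 later.

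Markers of other cells moved with some of these results. At 6 h, when Rhoj and Cavin2 were high in DHT pools, all 21 epithelial markers were negative (median −0.27) and 0 passed in limma, with 10 at an unadjusted p under 0.05. The lowest epithelial means, −0.53 and −0.44, were in replicates 1 and 2, where Rhoj was at 0.64 and 0.47, but replicates 3 and 4, with epithelial means of −0.10 and 0.00, had Rhoj at 0.79 and 0.42. The part of the epithelial markers in the 6 h ratios was not tested. Adipocyte markers, another source of caveolar genes, gave 0 of 10 calls in each comparison in limma, with 2, 3 and 0 at an unadjusted p under 0.05. Platelet and megakaryocyte markers, which share Vwf, gave 0 of 9, with 0, 1 and 1. Of 8 pericyte markers 1 was higher at 6 h, Anpep at 0.40 (limma, adjusted p = 0.0496), where 0.494% of all genes were called higher.

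Between the sexes, 10 of 21 epithelial markers were higher in males and 1 lower (median 0.38). Of 10 mesenchymal markers 4 were lower (median −0.42). Of 8 pericyte markers 4 were lower (median −0.22), Pdgfrb at −0.33 and Rgs5 at −0.34 among them. The pericyte markers Des (0.24) and Cspg4 (0.04) were above 0. Over all genes 3.72% were called higher and 3.86% lower. The mesenchymal mean was −0.24, −0.06, −0.58, −0.81 and −0.13 in replicates 1 to 5. Rhoj was farthest below 0 in replicate 4, where that mean was lowest, while Sox17 was at −1.15 and −1.22 in replicates 1 and 5, where it was −0.24 and −0.13. Duct genes were higher and lower in males: Wnt4 was at 0.94, Gata3 at 0.62 and Wnt9b at 0.51, and Amhr2 at −1.08 and Wnt7a at −0.77, both of the Mullerian duct. Wnt7a was below 0 in each of 5 pairs, at −0.88 to −0.67. Whether mesenchyme, pericytes or ducts contribute to the Sox17, Sox7 or Rhoj ratios was not tested.

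The genes most like Rhoj and Sox17 across the 12 pairs were found among 24674 genes with no missing pair. For Rhoj these were Ulk2 (r = 0.952), Zfp426 (r = 0.933), Fyb (r = 0.932), LOC227109 (r = 0.926) and Ccnyl1 (r = 0.914). Their own ratios were small, as with Ulk2 at 0.21, −0.07 and −0.05 in the 3 comparisons. For Sox17 the nearest was Sox7 (r = 0.981), followed by Il1r1 (r = 0.974), Msx2 (r = 0.973), Cdkl1 (r = 0.97) and Wnt7a (r = 0.967). In contrast to the Rhoj group, these had large male-female ratios of −0.94 to −0.51. They were picked for following Sox17 across the pairs, so this is a description. With each comparison's mean removed, the correlations were 0.605 to 0.84 in the Rhoj group and 0.699 to 0.848 in the Sox17 group, with Sox7 at 0.823. None of the 5 general endothelial genes was in either group. Each group holds only 5 of 24674 genes, so nothing is read from their absence.

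The contrasts between comparisons put a size on these patterns. The Rhoj ratio at 12 h minus that at 6 h was −1.18, with every 6 h pair above 0 and every 12 h pair below it, but the 6 h part was chosen and the contrast is a description. Its call was lost when any 1 of those 7 pairs was left out, with values of −1.32 to −0.93. Between 17.5 dpc and 12 h the Rhoj ratio differed by 0.13 in limma (adjusted p = 0.795). For Sox17 and Sox7 the male-female ratio minus the 12 h ratio was −0.91 and −0.53, and for Sox18 it was 0.00. Without replicate 1 of 12 h these were −0.87 and −0.49 for Sox17 and Sox7, and both calls were lost. In the difference from 12 h to 6 h 1 of 10 members was called lower, where 0.0162% of genes were, and in that from 17.5 dpc to 12 h 2 were, where 0.842% were. Nothing is read from the first count, or from the second as far as the male-female ratio may have chosen Sox7 and Sox17.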

How the data were processed

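The authors' deposited scanner files hold spot intensity and local background in both channels, and a log10 ratio, made with Agilent Feature Extraction 7.5.1 per the file headers. The deposited series matrix holds log2 ratios; how they were centred is not given in the sources used here, and their columns ran the same way as the turned scanner ratios. Spot identity and flags were read from other columns, which hold the scanner software's marks as deposited. In R 4.3.3 with limma 3.58.1 and data.table version 1.17.8, mean signals were background-corrected (normexp, offset 50) and loess-normalised within arrays with control spots given no weight. Outlier spots were set to missing, signs were turned, and spots of a probe and then the dye-swapped arrays of a pair were averaged into 12 replicates. Probes with a channel well above background on at least 6 of 24 arrays were kept, 35477 of 41174, and the brightest stood for its gene. One limma fit with 1 coefficient per comparison gave two-sided p-values, adjusted by Benjamini-Hochberg over 24717 genes, with 0.05 as threshold. SE is from the fit and SD is over pairs. Levels are log2 signals after loess and between-array (Aquantile) scaling, averaged over the 2 arrays of a pool. Their precision is limited by the number of arrays.

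The fit was tested on simulated data with known changes. Probe names were matched to symbols through RefSeq by accession for 21445 probes, symbol for 5431 and synonym for 4636, and 9662 kept the file's name. Named genes are the members, the list genes past the threshold (at most 5 per list and comparison, by size), 5 defining markers, and the 5 genes most like Rhoj and Sox17 by Pearson correlation; where a list is described by examples, fewer are named. The members, lists and motifs were chosen with earlier results of these data known. Lists are described by counts, without set tests. The result of 1 further list is not reported here. Of immune, red blood cell, smooth muscle, mesothelium and neuron markers, 2, 0, 0, 0 and 0 were higher and 0, 0, 1, 0 and 0 lower at 6 h, and 1, 0, 0, 2 and 0 higher and 7, 0, 4, 1 and 0 lower in males; at 12 h 0 passed in limma in each, with 1, 5, 1, 1 and 0 at an unadjusted p under 0.05. Whether pools are separate litters is not given in the sources used here, so p-values measure the spread between pools. Whether replicate numbers pair pools across comparisons is not settled here, and the main fit treats them as unpaired.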

Additional observations from a re-analysis of the deposited data

Results flagged for a closer look

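For 3 results the ratio in one comparison differed from that in the next by a contrast in limma. The Rhoj ratio at 12 h minus that at 6 h was −1.18 (adjusted p = 0.0462, 0.00571 to 0.179 over the alternatives). All 4 pairs at 6 h were above 0 and all 3 at 12 h below it. Rhoj was chosen for its 6 h value, so this p is no independent support, and the call was lost without any 1 of these 7 pairs. The Sox17 ratio between the sexes minus that at 12 h was −0.91 (adjusted p = 0.0074) and the Sox7 ratio −0.53 (adjusted p = 0.00777). The male-female values may have chosen both genes, so these p-values are no independent support, and both calls were lost without replicate 1 of 12 h (−0.87 and −0.49, adjusted p = 0.0532 and 0.0547). Across 20 groups of 4 or 5 pairs, no member had a pair far enough from the others to stand out.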

How the results depend on the processing

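The male-female ratio of Rhoj kept its direction and side of the threshold under 17 of 18 alternatives. Those of Sox17, Sox7 and Sox18 did so under 18, 18 and 9, but the same values may have chosen these genes, so this is no independent support. The count of members past the threshold at 6 h was 2, and 0 with median centring, scanner ratios, scaled ratios, the comparison fitted alone, the replicate block, replicate 1 as the only 6 h pair (chosen after seeing the data; its spread is assumed to be that of the other comparisons) or without any 1 of 4 replicates (range 0 to 0). It was 3 on unswapped arrays, with Tek added (0.22, adjusted p = 0.0462), and on swapped arrays Sox17 (0.33, adjusted p = 0.0223) passed in place of Cavin2. At 12 h it was 0, and 2 with either dye orientation alone: Rhoj with Pecam1 on unswapped and Rhoj with Sox18 on swapped arrays. At 17.5 dpc it was 4, and 2 without replicate 4 (2 to 4 over the left-out replicates). On swapped arrays it was 5, with Cavin2 (−0.29, adjusted p = 0.0365) and Tek (−0.24, adjusted p = 0.0136) added and Sox18 lost. The 12 h minus 6 h count of 1 was 0 without background correction, with scanner ratios, scaled ratios, unswapped arrays only, the comparison fitted alone, replicate 1 as the only 6 h pair, or any left-out replicate (0 to 0). The count of 2 for the sexes minus 12 h was 0 with the replicate block and 0 to 2 with a replicate left out. Correlations of same-numbered pairs across comparisons were −0.07 to 0.29. Pairs with different numbers were not compared, so whether the block removes spread that the pools share is not settled. Sox17 minus the general genes moved from −0.94 to −0.50 with all probes averaged. Signs turned only for ratios that had not been called. At 6 h Tek was at −0.01 with median centring and −0.16 on swapped arrays; Pecam1, Kdr and Tie1 were at 0.02, 0.02 and 0.07 on unswapped arrays; Kdr and Tie1 were at 0.10 and 0.02 with the block, and 0.17 and 0.03 with replicate 1 only. At 12 h Sox7 was at 0.09 on unswapped arrays, Tek at −0.01 with scanner ratios, and Cavin2, Tek and Tie1 at −0.05, −0.15 and 0.05 on swapped arrays. At 17.5 dpc Tek was at 0.06 in the series matrix and 0.03 with outlier spots kept; Cavin2, Kdr and Tek were at 0.05, 0.01 and 0.03 on unswapped arrays, and Pecam1 and Tie1 at 0.03 and 0.13 on swapped ones. Rhoj, sexes minus 12 h, was at −0.01 with median centring and −0.04 with scaled ratios. With replicates left out, signs turned for Tek (−0.01 to 0.05), Kdr (−0.07 to 0.02) and Tie1 (−0.04 to 0.01) at 6 h, Kdr (−0.02 to 0.16) and Sox17 (−0.14 to 0.04) at 12 h, Cavin2 (−0.14 to 0.02), Kdr (−0.13 to 0.05) and Vwf (−0.09 to 0.03) at 17.5 dpc, and Rhoj (−0.12 to 0.27), sexes minus 12 h. The cause of these changes was not tested. Over all genes, 122 were higher and 290 lower at 6 h, against 3 and 89 with median centring, 1 and 24 with scanner ratios, 259 and 443 in the series matrix, 72 and 189 with scaled ratios, 71 and 199 with all probes averaged, 0 and 8 fitted alone, 11 and 70 with the block, 1679 and 2103 on unswapped and 1957 and 1187 on swapped arrays, and 13 to 235 genes without 1 replicate. At 12 h 28 and 43 became 18 and 3 with median centring, 16 and 31 with scanner ratios, 10 and 9 with outlier spots kept, 12 and 9 with the stricter filter, 6 and 0 with the block, 2160 and 1026 on unswapped and 397 and 948 on swapped arrays, and 0 without background correction, in the series matrix, with scaled ratios, fitted alone or without any 1 replicate. Between the sexes 1873 genes became 869 fitted alone, 3432 on swapped arrays and 1139 without replicate 4.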
